A study of Mus musculus with 8 samples.

Results

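The leukocyte miRNAs described here are the 5 mature miRNAs mmu-miR-142a-3p, mmu-miR-142a-5p, mmu-miR-150-5p, mmu-miR-223-3p and mmu-miR-223-5p, chosen by name as the listed arms of 3 hairpins, among 1978 mouse miRNAs of the table. They were read in small RNA libraries of the 3A line, murine hepatocytes that form no tumours, and of the EVs (extracellular vesicles) that were pelleted by ultracentrifugation from medium conditioned for 72 h in the presence of EV-depleted serum. All cells had been infected with a pSUPER retroviral vector and selected with puromycin. The shCTR cells carried a scrambled shRNA and the shPCBP2 cells an shRNA against PCBP2, an RNA-binding protein that the study examined as a factor that keeps miRNAs inside the cell. The 4 conditions (shCTR cells, shPCBP2 cells and the EVs of each) had 2 biological replicates each, all from this single line and a single shRNA sequence.

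miR-142, miR-150 and miR-223 are textbook miRNAs of blood cells. miR-142 is produced throughout the haematopoietic system and in few other tissues, miR-150 accumulates in mature B and T lymphocytes, where it restrains the transcription factor Myb, and miR-223 is a miRNA of neutrophils and other myeloid cells, where it limits granulocyte production and inflammatory responses. In liver tissue these miRNAs are usually ascribed to resident and infiltrating leukocytes, which a cultured hepatocyte line does not contain, and they also circulate in plasma and serum, within vesicles and outside them.

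The mature sequences are shown because the seed, written in capitals (bases 2 to 8), sets which transcripts a miRNA pairs with, and because reads can only be assigned to a miRNA whose sequence differs from all others. They come from RefSeq for GRCm38.p6, in which 4 of the 5 members were matched, and run 5′ to 3′.
mmu-miR-142a-3p: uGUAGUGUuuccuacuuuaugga
mmu-miR-142a-5p: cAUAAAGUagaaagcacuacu
mmu-miR-223-3p: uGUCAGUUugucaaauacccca
mmu-miR-223-5p: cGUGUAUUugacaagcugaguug
The 4 seeds were all different, and no other miRNA among the 1679 mature sequences of that table carried any of them. The nearest other sequence was 7 edits away from miR-142a-3p and 9 edits away from each miR-223 arm. For miR-142a-5p it was 4 edits away and belonged to miR-3964, a miRNA with 0 reads in all 8 libraries. Only mouse sequences were compared, so these distances do not tell mouse reads from those of another species. The serum of the medium was bovine, and bovine sequences were not compared.

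The arms of a hairpin are cut from a single transcript, so that their relative amounts reflect which strand is kept. The pair of hairpins with both arms among the members are printed with the mature arms in capitals, the 5p arm first.
Mir142: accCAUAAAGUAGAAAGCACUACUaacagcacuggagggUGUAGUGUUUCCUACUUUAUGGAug
Mir223: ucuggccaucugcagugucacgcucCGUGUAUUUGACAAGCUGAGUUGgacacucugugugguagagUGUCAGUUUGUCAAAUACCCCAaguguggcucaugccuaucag
On GRCm38, Mir142 lies at chr11:87756864-87756927 on the plus strand, in an intron of the long non-coding RNA gene Mir142hg and overlapped on the other strand by Mir142b. Mir223 lies at chrX:96242817-96242926 on the plus strand, in an exon of the transcript F630028O10Rik, and Mir150 lies at chr7:45121757-45121821 on the plus strand and overlaps no other annotated gene. The miR-142b row of the table had 0 reads in all 8 libraries, as did miR-150-3p, the other arm of the miR-150 hairpin.

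The study is built on short sorting motifs, and the 4 printed mature sequences were searched for exact matches to some of them on the miRNA strand only. None of the 4 held the core CELL motif (AUUA or AUUG), which the study links to PCBP2 and to retention in the cell, and none held GGAG, a motif linked to loading into EVs. None of the 4 held GGCU, which was searched as well. Of all 1679 mature sequences, 2.50% held AUUA, 6.79% AUUG, 14.18% GGAG and 13.28% GGCU. The degenerate hEXO motif that the study links to SYNCRIP was not searched. Nor was the degenerate EXO motif, of which GGAG is a single form. The absence of these letters says nothing about binding of a protein.

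The counted reads of a library numbered 26391248 to 38166798. Mouse miRNAs took 8745848 to 12732173 of them in the cell libraries and 503070 to 687592 in the EV libraries, and cel-miR-39-3p, a nematode miRNA added as a spike-in, took the remaining reads. The level of a miRNA is given below as reads per 1000000 spike-in reads, and differences on this scale include any difference in the number of cells or vesicles from which RNA was taken. More vesicles and more miRNA per vesicle cannot be told apart in such bulk libraries, nor can fewer expressing cells and less miRNA per cell. With library sizes set by the spike-in, the median of the 180 miRNAs tested was lower in EVs than in cells by a log2 difference of -4.93 in shCTR and -4.90 in shPCBP2, so that most miRNAs lay far on the cell side.

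The leukocyte miRNAs lay on the opposite side. In the 4 EV libraries the 5 members together held between 1.37% and 1.73% of all mouse miRNA reads, against 0.000111% to 0.000707% in the 4 cell libraries. Of these members 3, namely miR-150-5p, miR-223-3p and miR-142a-3p, had reads in every EV library and a higher level in every EV library than in any cell library. Such a separation was found for 24 of the 800 miRNAs with a read in any library, which is 3.0%. The remaining members, miR-142a-5p and miR-223-5p, had no reads in cells but were also missing from some EV libraries.

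**Figure D1:**
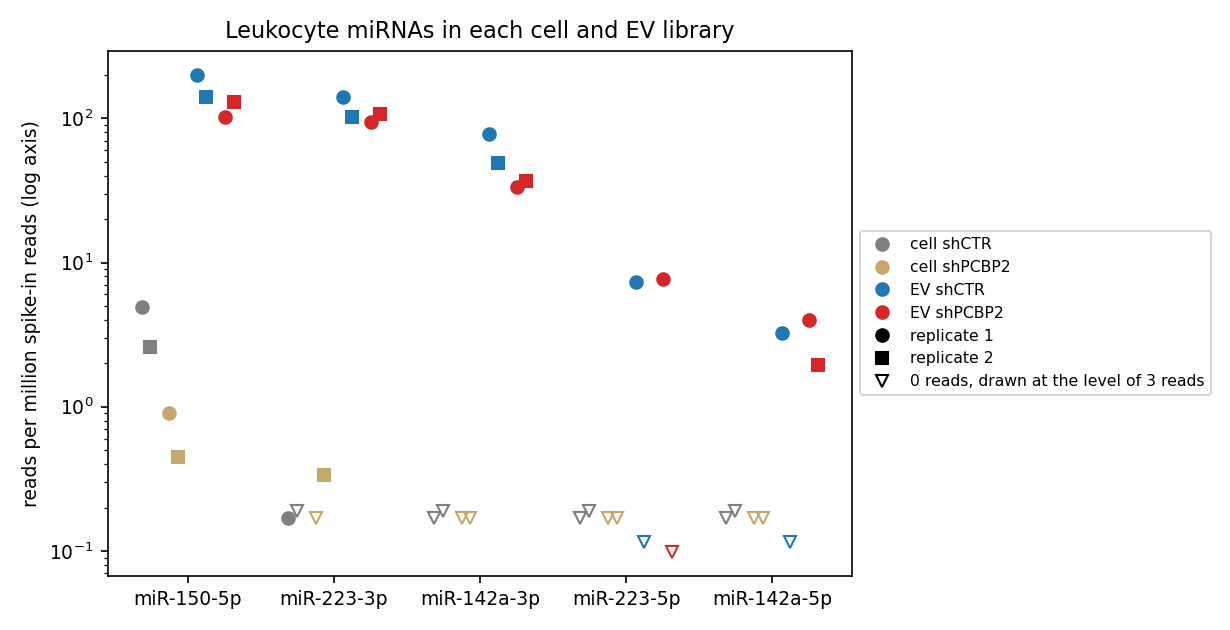
Reads per 1000000 spike-in reads (log axis) of the 5 leukocyte miRNAs in each of the 8 libraries, with colours for the 4 conditions, circles for replicate 1 and squares for replicate 2; open triangles mark libraries with 0 reads and are drawn at the level of 3 reads. The EV values of miR-150-5p, miR-223-3p and miR-142a-3p lie between 33.6 and 201, and no cell value of these miRNAs exceeds 4.88.

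miR-142a-3p, the guide arm of the pan-haematopoietic hairpin, was not read in hepatocytes at all. It had 0 reads in each of the 4 cell libraries, among 8745848 to 12732173 mouse miRNA reads, and a count of 0 allows at most 3 reads, or a level of 0.168 to 0.191 in each library. The EVs gave 2157 and 1274 reads for the shCTR replicates and 1263 and 1117 for the shPCBP2 replicates, which are levels of 77.7, 48.9, 33.6 and 36.7. Its mean level in EVs was 49.2 ± 20.1 (SD, n = 4), and it took 0.204% to 0.314% of the mouse miRNA reads of these libraries. Taken against the floor of 3 reads per library, it was at least 353-fold higher in EVs than in cells in shCTR and at least 208-fold higher in shPCBP2. Of the 28 miRNAs with reads in EVs and none in any cell library, only 7 were read in all 4 EV libraries, and among the 28 miR-142a-3p had the highest mean level after miR-451a, a miRNA of red blood cells with a mean of 132.9.

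miR-150-5p, the lymphocyte miRNA, was the most abundant of the 5 in EVs and the only member read in every cell library. The shCTR cells gave 87 and 41 reads of it and the shPCBP2 cells 16 and 8, with levels of 4.88, 2.61, 0.907 and 0.449. The EVs gave 5575 and 3658 reads for the shCTR replicates and 3827 and 3931 for the shPCBP2 replicates, with levels of 201, 141, 102 and 129. The lowest EV library therefore stood well above the highest cell library. The mean level was 143.1 ± 41.7 (SD, n = 4) in EVs and 2.21 ± 2.01 (SD, n = 4) in cells. The pooled EV/cell ratio was 45.0 in shCTR (95% exact counting interval 37.8 to 54.0) and 169 in shPCBP2 (113 to 263). These intervals and the floors above cover counting error only, since no molecular identifiers were counted and a molecule can be read many times.

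miR-223-3p, the guide arm of the myeloid hairpin, was nearly absent from cells. The shCTR cells gave 3 and 0 reads of it and the shPCBP2 cells 0 and 6. The EVs gave 3883 and 2673 reads for the shCTR replicates and 3528 and 3255 for the shPCBP2 replicates, with levels of 140, 103, 94.0 and 107 and a mean of 110.9 ± 20.1 (SD, n = 4). The EV libraries were close to each other and far from all cell libraries, in which the counts were at or near the floor. The pooled EV/cell ratio was 1363 in shCTR (95% exact counting interval 466 to 6611) and 590 in shPCBP2 (271 to 1608), and these intervals overlapped.

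The opposite arms were rare. miR-142a-5p had 90 and 0 reads in the EV shCTR replicates and 151 and 59 in the EV shPCBP2 replicates, and 0 reads in all 4 cell libraries. Within each library it reached 4.17, 0, 12.0 and 5.28 reads per 100 reads of miR-142a-3p, so that the 3p arm dominated in every EV library. miR-223-5p had 204 and 0 reads in the EVs of shCTR cells and 288 and 0 in those of shPCBP2 cells, again with 0 reads in cells, which is 5.25, 0, 8.16 and 0 reads per 100 reads of miR-223-3p. In each shRNA group it was thus present in 1 EV library and missing from the other. The replicate numbers are those of the sample titles, and a shared number marks no known shared culture. Against the floor of 3 reads per library, miR-142a-5p was at least 17.6-fold higher in EVs than in cells in shPCBP2, where both EV replicates had reads. In the other cases the EV reads came from replicate 1 alone, and no fold is given for them. In EV libraries only 28 of the 761 counts above 0 (3.68%) lay between 1 and 40, against 921 of 2179 (42.3%) in cell libraries. A miRNA read in EVs was thus seldom read only a few times, and for both minor arms the counts went from 0 to 59 or more with nothing between.

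Within EVs, the order of the members was miR-150-5p, miR-223-3p and miR-142a-3p in each of the 4 libraries. The ranges of miR-150-5p (102 to 201) and miR-223-3p (94.0 to 140) overlapped across libraries, and the highest value of miR-142a-3p (77.7) lay below the lowest of both. By mean level among all miRNAs in EVs these 3 took ranks 31, 40 and 59, and miR-223-5p and miR-142a-5p took ranks 153 and 172. The levels of these last members overlapped and were not in the same order in all EV libraries. All are mature miRNAs of 21 to 23 bases where the sequence was matched, but levels of different miRNAs also depend on how well each is ligated and amplified.

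The question of where the members lie was tested with the edgeR quasi-likelihood test, for which a miRNA had to be read in at least 2 libraries of cells and 2 of EVs. Of the members, only miR-150-5p and miR-223-3p met this filter, among 180 miRNAs. Both were called higher in EVs in shCTR and in shPCBP2, where 6.67% (12 of 180) and 7.78% (14 of 180) of the tested miRNAs were called in this direction. The log2 difference of miR-150-5p was 5.51 ± 0.79 (SE) in shCTR with an edgeR adjusted p of 0.000892, and 7.40 ± 0.87 in shPCBP2 with an adjusted p of 0.000321. For miR-223-3p the adjusted p was 0.00674 in shCTR and 0.00900 in shPCBP2. Its fitted log2 differences rest on cell counts near 0 and are no bound, and the ratios with counting intervals given above stand in their place. Ordered by the fitted difference, miR-223-3p was number 1 and number 3 of the 180 miRNAs, and miR-150-5p number 5 and number 6, in shCTR and shPCBP2.

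With the filter widened to reads in at least 2 libraries of any kind, 598 miRNAs were tested and all members entered. miR-142a-3p was then called higher in EVs in shCTR (edgeR adjusted p = 0.00159) and in shPCBP2 (adjusted p = 0.00192), with 3.85% and 3.51% of the 598 miRNAs called in that direction. Because it has no reads in cells, it passed this filter only through the EV libraries in which it is high, and the call is given as a value and not as support. miR-142a-5p (adjusted p = 0.138 and 0.116) and miR-223-5p (adjusted p = 0.206 and 0.204) were not called. An exact two-sided permutation test of the 4 EV against the 4 cell libraries, for each member on its own, gave p = 0.0286 for miR-150-5p, miR-223-3p and miR-142a-3p, which is the smallest p this design can give. The test took the shCTR and shPCBP2 libraries together. With 0 reads in cells and reads in all EV libraries, miR-142a-3p could give no other p, so its p is no support. The members were chosen with earlier results of these data known, so these p-values serve as a description. The same exact test gave p = 0.143 for miR-142a-5p and p = 0.429 for miR-223-5p.

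The calls were then repeated without the spike-in, which sets most miRNAs lower in EVs, with 12 called higher and 107 lower in shCTR and 14 higher and 108 lower in shPCBP2. With TMM factors the split was 42 against 40 and 42 against 45, with median-of-ratios factors 40 against 36 and 45 against 41, and with the total mouse miRNA count 43 against 32 and 54 against 35. miR-150-5p and miR-223-3p were called higher in EVs in both shRNA groups under each of these scalings.

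**Figure D2:**
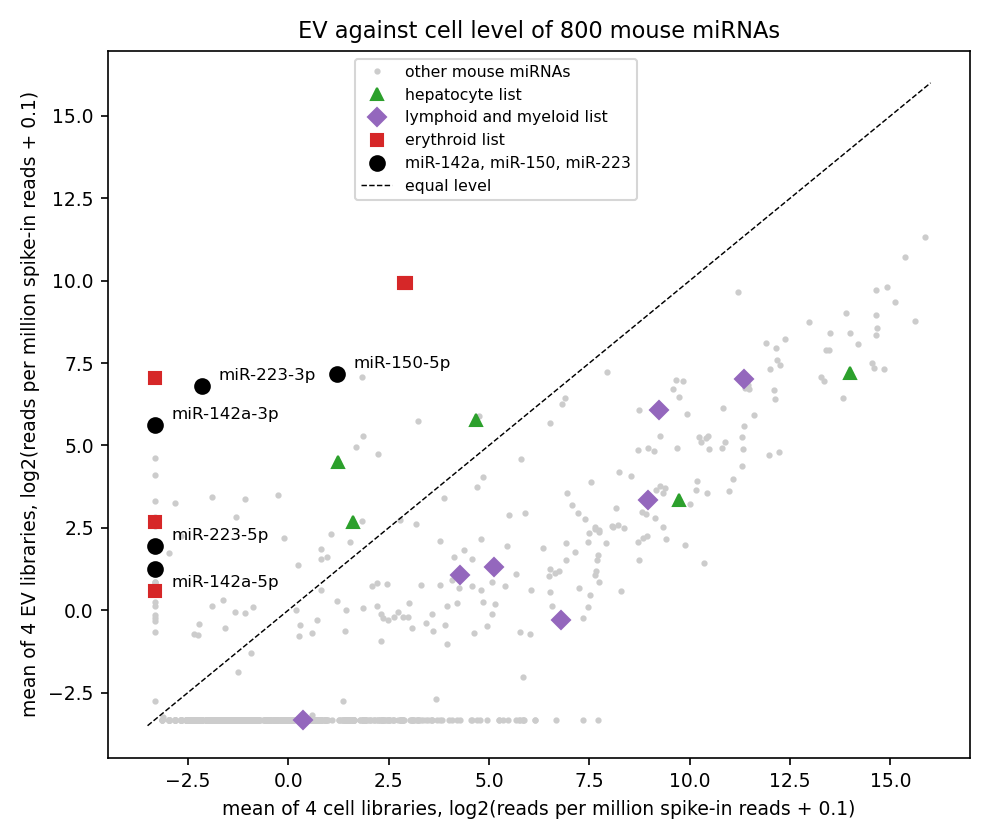
Mean level of 800 mouse miRNAs in the 4 EV libraries (vertical) against the 4 cell libraries (horizontal), both as log2(reads per 1000000 spike-in reads + 0.1), with the leukocyte miRNAs as black circles and other lists in colour; the dashed line marks equal levels. The 5 leukocyte miRNAs lie above the line together with the erythroid list, and the 7 miRNAs of the lymphoid and myeloid list lie below it.

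Other miRNAs known from blood cells did not all share this pattern. The lymphoid and myeloid list held 7 miRNAs (miR-155-5p, miR-146a-5p, miR-146b-5p, miR-342-3p, miR-342-5p, miR-181a-5p and miR-147-3p), which act in immune cells but are also expressed elsewhere. Of its 7 members 5 were tested, and 0 were called higher and 3 lower in EVs in either shRNA group. That share is near the one over all 180 tested miRNAs, of which 107 were called lower in shCTR and 108 in shPCBP2. The median log2 difference of the list was -4.26 in shCTR and -3.56 in shPCBP2, beside -4.93 and -4.90 over all tested. miR-155-5p, an activator of immune responses that is induced in many cells, had levels of 522, 657, 366 and 441 in the cell libraries and 9.36, 13.6, 8.47 and 8.58 in EVs, and fell by 5.68 ± 0.47 on the log2 scale from cells to EVs in shCTR (edgeR adjusted p = 5.62e-05). miR-181a-5p, which tunes T cell receptor signalling, fell by 4.85 ± 0.28 (edgeR adjusted p = 1.29e-05), and miR-342-3p fell by 3.36 ± 0.36 (adjusted p = 0.000205). These falls hold relative to the spike-in. As a share of mouse miRNA reads, miR-342-3p took 0.270% to 0.388% in EV libraries and 0.0493% to 0.131% in cell libraries. For miR-181a-5p the shares were 0.571% to 0.895% and 0.228% to 0.543%, so that both turned higher in EVs. The shares of miR-155-5p overlapped, with 0.0378% to 0.0640% in EVs and 0.0622% to 0.0883% in cells. These 3 miRNAs were thus read in the cell libraries at far higher levels than any of the leukocyte miRNAs, of which miR-150-5p reached at most 4.88 and miR-223-3p at most 0.337 in cells.

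The erythroid and mesenchymal lists, in contrast, lay on the EV side with the leukocyte miRNAs. The 5 erythroid miRNAs (miR-451a, miR-144-3p, miR-144-5p, miR-486a-5p and miR-486b-5p) had a summed level between 7.65 and 22.6 in the cell libraries and between 1879 and 2385 in the EV libraries. miR-451a, miR-144-3p and miR-144-5p had 0 reads in all 4 cell libraries, and miR-451a had levels of 160, 141, 95.7 and 135 in EVs. The remaining 2 were tested and both were called higher in EVs in both shRNA groups. Their counts were nearly equal in each library, such as 30647 and 30824 in EV shCTR replicate 1. These calls are thus not separate results, and the summed level can count the same reads under both names. The part of these erythroid miRNAs in the level of the leukocyte miRNAs was not tested, and a library of medium without cells was not analysed here. The mesenchymal list (miR-143-3p, miR-145a-5p, miR-199a-3p and miR-214-3p) had all 4 of its miRNAs called higher in EVs in both shRNA groups. Over all tested miRNAs this share was 6.67% in shCTR and 7.78% in shPCBP2. The part of the mesenchymal list in the level of the leukocyte miRNAs was not tested either. The 2 endothelial and platelet miRNAs (miR-126a-3p and miR-126a-5p) were both tested and not called.

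The hepatocyte label was checked with 5 miRNAs, all of which were read in every cell library, but at very different levels. miR-194-5p, a miRNA of liver and intestine, had levels of 12381 to 19231 in the cell libraries, and miR-192-5p had 622 to 1151. miR-122-5p, the defining miRNA of adult hepatocytes, had only 20.2 to 30.8 in cells and 30.5 to 83.8 in EVs. In cells miR-101a-3p (0.0636 to 4.88) and miR-148a-3p (0.397 to 4.21) were about as low as miR-150-5p (0.449 to 4.88). The reads of these last 2 hepatocyte miRNAs in cells thus lend the label little weight. Of the 5, 0 were called higher and 2 lower in EVs in shCTR (miR-192-5p and miR-194-5p), and 1 higher (miR-148a-3p) and 2 lower in shPCBP2. Over all 180 tested miRNAs, 12 were called higher and 107 lower in shCTR, and 14 higher and 108 lower in shPCBP2. In EVs miR-150-5p was higher than miR-122-5p in all 4 libraries, and it was lower than miR-122-5p in all 4 cell libraries.

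The likeness of each pattern was measured as Pearson's r over the 8 libraries of log2(reads per 1000000 spike-in reads + 0.1), among 403 miRNAs with at least 100 reads. For miR-142a-3p the most alike were miR-451a (r = 0.9987) and miR-144-3p (r = 0.998), followed by miR-487b-3p (r = 0.9921) and miR-433-3p (r = 0.9915). For miR-223-3p they were miR-451a (r = 0.990) and miR-142a-3p (r = 0.989), followed by miR-379-5p (r = 0.987). For miR-150-5p they were miR-486b-5p (r = 0.987) and miR-486a-5p (r = 0.985), followed by miR-145a-5p. The pattern of miR-223-5p was most like that of miR-199b-5p (r = 0.998), and that of miR-142a-5p most like that of miR-412-5p (r = 0.876). All these points share their libraries and spike-in counts and fall into a cell and an EV cluster, so that the values mainly describe the step between compartments.

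The comparison at the centre of the study, whether the EV/cell ratio of a miRNA changes when PCBP2 is silenced, called neither of the 2 members tested, and 2.22% (4 of 180) of all tested miRNAs were called in either direction. The EV/cell ratio of miR-150-5p was higher in shPCBP2 by a log2 difference of 1.90 ± 0.94 (SE), with a 95% interval of -0.39 to 4.18 and an edgeR adjusted p of 0.637. The median of all tested was -0.08. The unadjusted edgeR p of miR-150-5p was 0.0885. The study listed miRNAs by a looser p-value cutoff together with a log2 cutoff, so the calls here do not stand for its list. The log2 difference and unadjusted edgeR p of miR-150-5p lie within both of those cutoffs, although the study used another test. For miR-223-3p the adjusted p was 0.992, on cell counts of 9 reads in all. No ratio could be compared for miR-142a-3p, miR-142a-5p and miR-223-5p, because their cell counts were 0 on both sides.

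Each part of this ratio was also fitted on its own. In cells the miR-150-5p counts of 87 and 41 in shCTR and 16 and 8 in shPCBP2 did not overlap, and the log2 difference was -2.46 ± 0.70 (95% interval -4.16 to -0.76) beside a median of -0.49 over all tested. The edgeR adjusted p was 0.218. No miRNA was called in this comparison by that test (0.0%, 0 of 180), with 25 at an unadjusted p under 0.05, while DESeq2 called 18 and limma voom 16. miR-150-5p was called by DESeq2 (adjusted p = 0.00441) and in an edgeR fit of the 4 cell libraries alone (adjusted p = 0.0411). The erythroid miRNAs were summed to 22.6 and 19.7 in the cell shCTR libraries and to 7.65 and 9.54 in the cell shPCBP2 libraries. Their median log2 difference in cells was -1.30. That of the other lists was -1.05 (lymphoid and myeloid), -4.31 (mesenchymal), -0.47 (endothelial and platelet) and -0.37 (hepatocyte). The mesenchymal value includes miR-145a-5p and miR-214-3p, with 0 reads in shPCBP2 cells. miR-223-3p differed by 0.93, on cell counts near 0. The part of any of these in the difference of miR-150-5p was not tested.

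**Figure D3:**
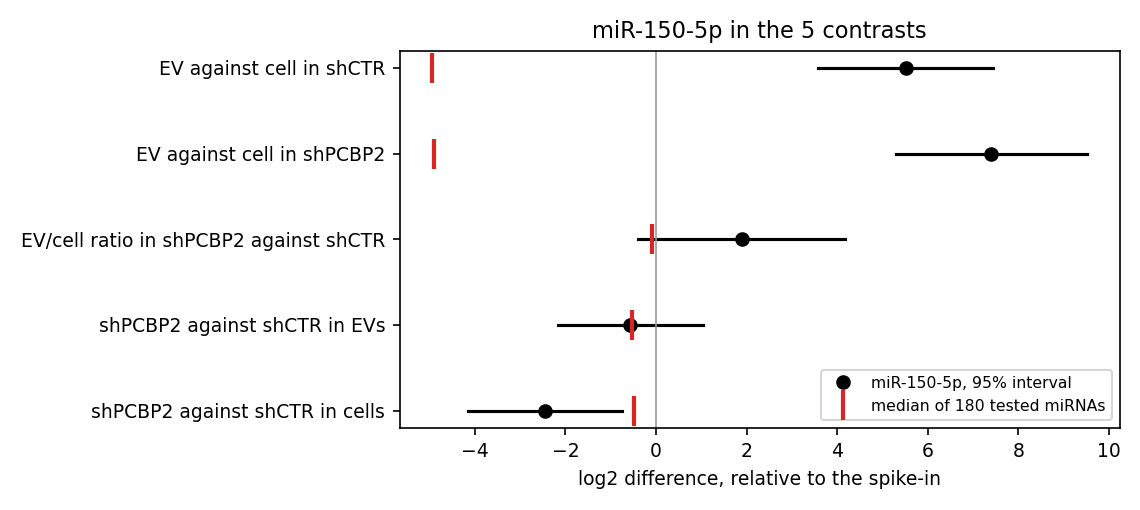
Log2 difference of miR-150-5p in the 5 contrasts (points, with 95% intervals as lines) and the median of the 180 tested miRNAs (red ticks), relative to the spike-in. The intervals of both EV against cell contrasts lie above 0, those of the EV/cell ratio (-0.39 to 4.18) and of the EVs (-2.15 to 1.03) include 0, and that of the cells (-4.16 to -0.76) lies below it.

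In EVs, neither tested member was called between shPCBP2 and shCTR, where 7.22% (13 of 180) of all tested miRNAs were called in either direction. The log2 difference was -0.56 ± 0.65 for miR-150-5p (95% interval -2.15 to 1.03, edgeR adjusted p = 0.746) and -0.27 ± 1.49 for miR-223-3p (adjusted p = 0.950), beside a median of -0.54. With the wider filter miR-142a-3p differed by -0.85 ± 0.57 (edgeR adjusted p = 0.987). Relative to the spike-in, the mean of the shPCBP2 replicates was 0.556 of that of the shCTR replicates for miR-142a-3p, 0.677 for miR-150-5p and 0.829 for miR-223-3p. The replicates of the first 2 miRNAs did not overlap between the groups. Nor did those of miR-155-5p, miR-342-3p, miR-451a, miR-144-3p, miR-486a-5p, miR-486b-5p, miR-126a-5p, miR-192-5p and miR-194-5p, all lower in shPCBP2. Those of miR-126a-3p did not overlap either, but were higher in shPCBP2, with a ratio of 1.21. The other members and listed miRNAs overlapped where they had reads. The share over all miRNAs was not counted. As a share of mouse miRNA reads, the ratios of miR-142a-3p, miR-150-5p and miR-223-3p were 0.784, 0.951 and 1.16. The direction of miR-223-3p thus turned with the scaling, and the groups of miR-150-5p overlapped. On this scale those of miR-142a-3p and miR-223-3p did not overlap, in opposite directions. An exact permutation test of 2 against 2 libraries cannot give a p under 0.333.

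Ratios between miRNAs of a single library do not depend on scaling. For every 100 reads of miR-150-5p there were 69.7 and 73.1 reads of miR-223-3p in the EV shCTR replicates and 92.2 and 82.8 in the EV shPCBP2 replicates. For every 100 reads of miR-223-3p there were 55.5 and 47.7 reads of miR-142a-3p in shCTR and 35.8 and 34.3 in shPCBP2. Neither ratio overlapped between the groups. miR-142a-3p per 100 reads of miR-150-5p was 38.7 and 34.8 in shCTR and 33.0 and 28.4 in shPCBP2. The shRNA groups did not overlap in this ratio either. These differences within libraries were not tested across miRNAs, and how often ratios of other miRNAs fail to overlap was not counted. The smallest p of an exact permutation test of 2 against 2 libraries, given above, applies to each difference. These ratios also share their miRNAs, so they do not count as separate results.

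**Figure D4:**
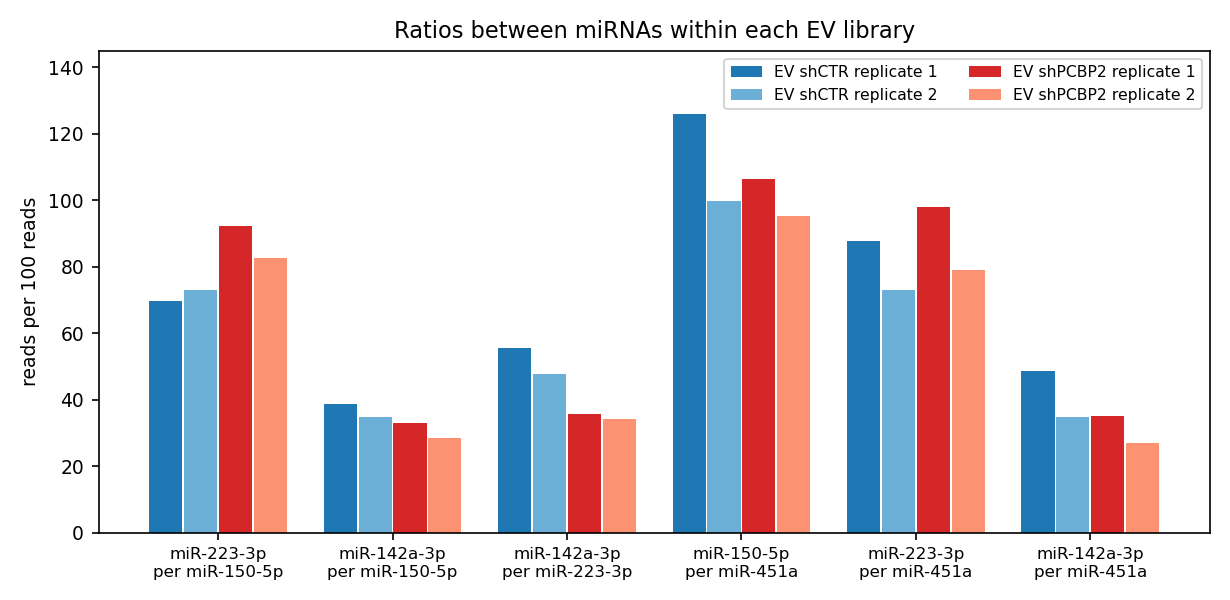
Reads of a miRNA per 100 reads of another in each of the 4 EV libraries (bars, starting at 0; blue for shCTR and red for shPCBP2 replicates). miR-142a-3p per 100 reads of miR-223-3p is 55.5 and 47.7 in shCTR against 35.8 and 34.3 in shPCBP2, and miR-150-5p stays between 95.4 and 126 reads per 100 reads of miR-451a.

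The leukocyte miRNAs were also set against the erythroid miR-451a within each EV library. There were 126, 99.8, 106 and 95.4 reads of miR-150-5p per 100 reads of miR-451a in EV shCTR replicates 1 and 2 and EV shPCBP2 replicates 1 and 2, and 87.7, 72.9, 98.1 and 79.0 reads of miR-223-3p. The values of the shCTR and shPCBP2 libraries overlapped for both. For miR-142a-3p there were 48.7, 34.7, 35.1 and 27.1 reads per 100 reads of miR-451a, and the groups overlapped as well.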

How the data were processed

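The authors prepared small RNA libraries with a NEXTFLEX kit, trimmed and filtered the reads, aligned the forward reads to miRBase hairpins plus the spike-in with mirPRo, and deposited raw read counts per mature miRNA in a table, without normalization. miRNAs that share sequence can share reads. The members and lists were chosen with earlier results of these data known.

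All 5 members and the lists are named, with the 5 most alike miRNAs of each member considered. Counts were tested with edgeR 4.0.16 (quasi-likelihood, prior count 0.125, library sizes proportional to the spike-in, terms for compartment, shRNA and their interaction) in R 4.3.3, with Benjamini-Hochberg adjustment over all tested miRNAs and a threshold of 0.05. The fit gave a common dispersion of 0.693. Standard errors were obtained from the F statistic. DESeq2 1.42.0 (as in the study's own test) and limma 3.58.1 were alternatives, besides other scalings, filters, blocks and left-out libraries. The step was tested on simulated data. Exact permutation tests went through every split of the libraries with numpy 2.4.6, and the exact counting intervals used scipy 1.17.1. Replicates follow the sample titles, and the sample descriptions number the shPCBP2 replicates differently. The culture block pairs cell and EV libraries by title number, and which cultures they share is not known. Loci are from GENCODE (GRCm38). Small RNA libraries give no value for the silenced PCBP2 mRNA.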

Additional observations from a re-analysis of the deposited data

How the results depend on the processing

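The EV against cell calls of miR-150-5p and miR-223-3p held in both shRNA groups under all 20 alternatives that gave a value, each library left out in turn included, with adjusted p up to 0.0119 and 0.0341 in shCTR. For the EV/cell ratio and for EVs, no alternative called a member. The adjusted p of miR-150-5p for the EV/cell ratio ranged from 0.225 to 0.998. In cells, 1 member was called with DESeq2 and 1 with only the 4 libraries compared, miR-150-5p both times, and 0 under the other alternatives, and the cause was not tested. A filter of at least 10 counts in every library left no member to test.

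For miR-223-3p the uncalled difference in EVs turned to 0.021 with TMM factors, 0.14 with median-of-ratios factors and 0.22 with the total count. Without cell shPCBP2 replicate 2, which holds 6 of its 9 cell reads, its EV/cell ratio difference turned from -1.20 to 3.90 and its difference in cells from 0.93 to -4.17. With each library left out in turn these ranged from -5.37 to 3.90 and from -4.17 to 5.10.

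Counts over all miRNAs moved more. For the EV/cell ratio (4 in the reported fit) they were 13 with TMM, 2 with median-of-ratios factors, 14 with DESeq2, 0 with voom, with 10 counts and with a culture block, and 0 to 11 with a library left out. For EVs (13) they were 4 and 7 with the wider filter and none, 7 with 10 counts, 27 with DESeq2, 1 with only the 4 libraries and 1 to 21 with a library left out. For cells (0) they were 5, 1 and 3 with the other scalings, 8 with 10 counts, 18 with DESeq2, 16 with voom and 39 with only the 4 libraries. For EV against cell they were 119 and 122, and 295 and 286 with the wider filter, 294 and 294 with none, and 76 with median-of-ratios factors and 75 with the total count in shCTR.

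Replicates with the same number did not deviate together (r of -0.335 between the cell groups and -0.104 between the EV groups). With the replicate block, 2 members were called in each EV against cell comparison and 0 in the others, and 1 miRNA in all for the EV/cell ratio and 2 for EVs. Crossed numbers, added after seeing the data, gave 0 and 2.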

Other observations

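Besides the leukocyte and erythroid miRNAs, the miRNAs read in all 4 EV libraries and in no cell library were miR-433-3p (mean level 24.4), miR-487b-3p (17.3), miR-493-5p (9.83) and miR-409-5p (5.73), which were named after their values were seen. As background, these 4 are encoded in the imprinted Dlk1-Dio3 region, which is active in embryonic, placental and mesenchymal tissues.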
